A study of Mus musculus with 12 samples.

Results

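The Gnas complex locus was described here through the 135 CpG sites that lie on mouse chromosome 2 inside Gnas (NCBI gene 14683, chr2:174284320-174346744, GRCm38) or within 10 kb of its ends. They were chosen by position only, out of 421177 sites in the deposited table and 33037 on chromosome 2. A value in all 12 samples was present at 107 of them. The first site lay at position 174284851 and the last at 174345375, and 0 sites lay in either 10 kb flank. Of the 135 sites, 34 also lay inside Nespas (listed by RefSeq as Gnasas1, an antisense RNA, chr2:174281237-174295436), and 2 inside the long non-coding RNA Gm30189 (chr2:174320906-174327387).

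Methylation was measured by reduced representation bisulfite sequencing (RRBS), in which MspI cuts DNA at CCGG and bisulfite separates methylated from unmethylated cytosines in the short fragments that are kept. DNA came from the left ventricle of wild-type FVB/N mice taken at 3 weeks of age, at weaning. Their FVB/NJ mothers had been given a Teklad high-fat diet (HFD) or a PicoLab regular diet (RD) from 6 weeks of age onward, and were mated after 8 weeks of diet to RD-fed males of matched age. There were 6 HFD mice (3 of each sex) and 6 RD mice (4 females, 2 males). The litters and the number of mothers are not given in the sources used here, so p-values measure the spread between these mice. Every HFD library has a number from 2 to 8 and every RD library from 9 to 14, so the order of the libraries cannot be told apart from the diet. Left ventricle tissue mixes cell types, so a level is an average over them and over both parental copies.

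Gnas encodes the alpha subunit of the stimulatory G protein Gs, which carries the signal from hormone receptors at the cell surface to adenylyl cyclase and cyclic AMP. The locus is imprinted and has several alternative first exons. The Nesp exon is used by the maternal copy and its region is methylated on the paternal copy. The antisense RNA Nespas, the XL exon and exon 1A are used by the paternal copy, and their regions carry methylation on the maternal copy. Exon 1, which starts the message for Gs alpha, lies in a CpG island that is free of methylation on both copies, and Gs alpha is made from both copies in most tissues. A level near the middle of the scale over both copies is thus the textbook pattern for the imprinted regions, and a level near 0 for exon 1.

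RefSeq places 4 Gnas starts in the locus, and their promoter windows are printed to show how the start that is unmethylated on both copies differs in sequence from the imprinted starts. Each window runs from 250 bases before to 50 bases after the start, 5′ to 3′ on the plus strand of GRCm38.p6, with every CpG, the unit that can be methylated, in capitals. The windows are chr2:174284070-174284369 (Nesp), chr2:174327518-174327817 (exon 1A, the downstream of 2 starts) and chr2:174329756-174330055 (exon 1).
Nesp start: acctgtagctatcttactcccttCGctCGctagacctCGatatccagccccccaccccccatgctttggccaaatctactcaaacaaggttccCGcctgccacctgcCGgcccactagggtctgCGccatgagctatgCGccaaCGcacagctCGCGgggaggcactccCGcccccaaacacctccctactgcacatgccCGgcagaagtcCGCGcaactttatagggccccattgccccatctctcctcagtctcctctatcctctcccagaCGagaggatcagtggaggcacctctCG
Exon 1A start: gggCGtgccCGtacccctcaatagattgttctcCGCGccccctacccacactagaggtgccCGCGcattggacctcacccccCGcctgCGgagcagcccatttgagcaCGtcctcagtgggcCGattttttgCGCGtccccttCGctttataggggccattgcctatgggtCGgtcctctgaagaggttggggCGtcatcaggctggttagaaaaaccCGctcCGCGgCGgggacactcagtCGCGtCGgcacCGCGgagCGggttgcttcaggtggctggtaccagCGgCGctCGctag
Exon 1 start: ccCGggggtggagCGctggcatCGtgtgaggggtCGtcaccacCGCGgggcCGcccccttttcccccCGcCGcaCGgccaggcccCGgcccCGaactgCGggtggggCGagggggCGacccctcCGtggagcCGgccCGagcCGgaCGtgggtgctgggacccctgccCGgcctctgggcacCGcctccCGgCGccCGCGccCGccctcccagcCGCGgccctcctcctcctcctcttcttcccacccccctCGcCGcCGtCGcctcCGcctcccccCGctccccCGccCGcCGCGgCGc
The Nesp window held 16 CpGs, the exon 1A window 28 and the exon 1 window 40. Over all 32851 RefSeq promoter windows of this length the median was 7, and the exon 1 window held more CpGs than 96.1% of them. The window of the upstream exon 1A start (174327749) shares 281 of its bases with the one shown and held 27. The letters TTTATA were searched on both strands: they stood in the Nesp window and in both exon 1A windows but not in the exon 1 window, and in 13.6% of all windows. MspI cuts at CCGG, which occurred 2 times in the Nesp window, 0 times in both exon 1A windows and 6 times in the exon 1 window, against at least once in 52.8% of all windows. None of these windows held a deposited site, so every level below was measured beside a start and not across it. The table used gives no start for the XL exon and no promoter for Nespas.

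The sites fell mostly between the extremes. By their mean over the samples, 102 of the 135 sites (75.6%) were intermediate (20 to 80% methylated), 21 were unmethylated (under 20%) and 12 were methylated (over 80%). Over all autosomal sites of the deposited table, with or without missing values, 19.9% were intermediate. Sites were joined into blocks where neighbours lay at most 50 bp apart and lacked the same samples, which gave 38 blocks. The 18 blocks of at least 3 sites held 110 of the sites: 3 blocks had a mean under 20%, 13 lay between 25.5 and 70.1%, and 2 were over 80%. Of the 13, 9 lay within 40 to 60%. Intermediate sites in 1 block moved together over the samples, with a median Pearson's r of 0.899 over 277 pairs of sites. Sites of different blocks within 1000 bp had a median r of 0.201 over 623 pairs, and sites further apart 0.112 over 2755 pairs. These r are over the same 12 samples, and sites of a block lie close enough to be read on the same fragments.

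**Figure D1:**
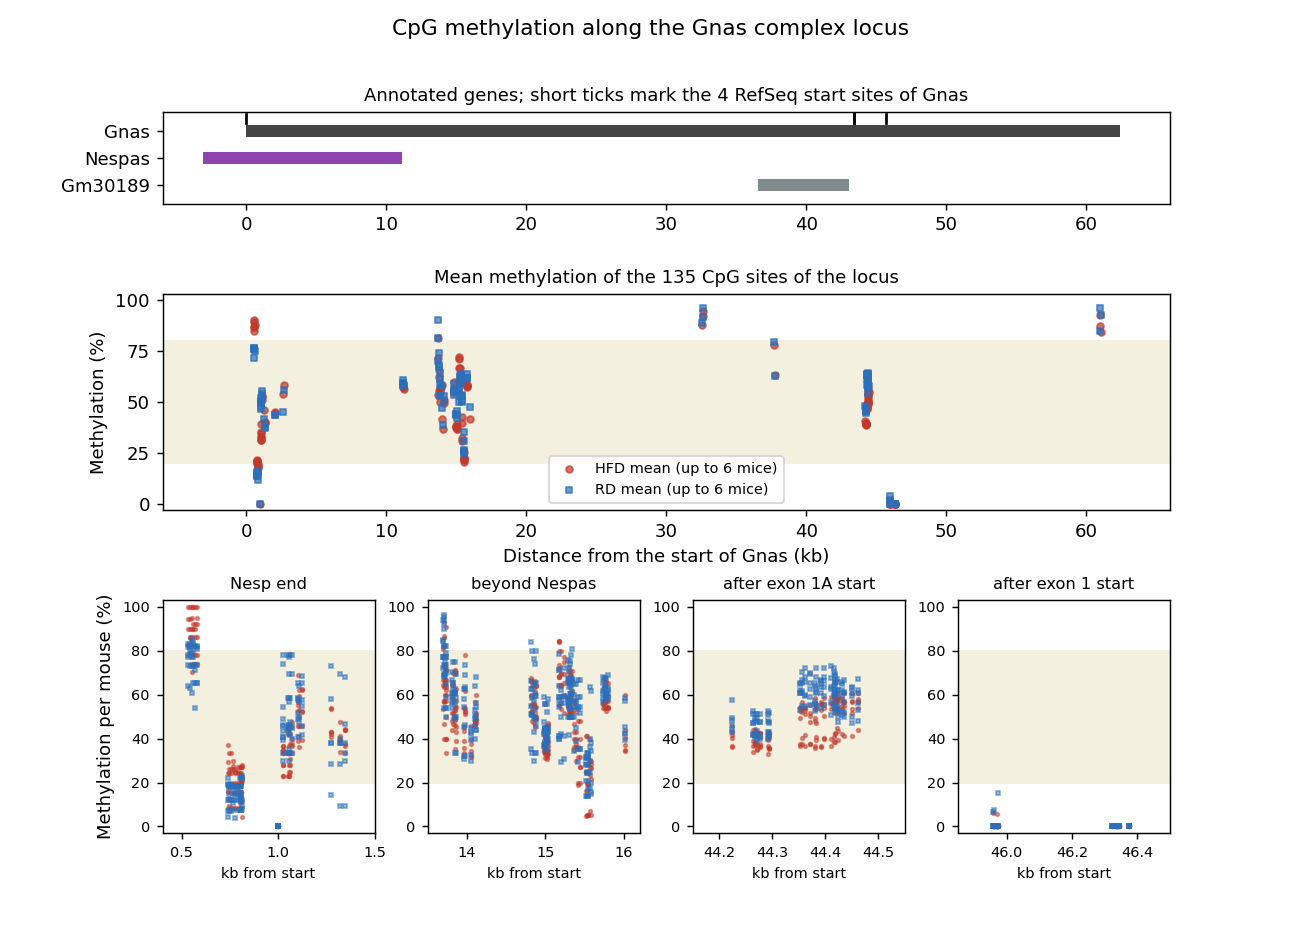
Methylation (percent) of each site against its distance from the Gnas start in kb, as the mean of the HFD and of the RD samples, with enlarged panels of the dense regions. Block means were 87.1% (HFD) and 75.0% (RD) at the first Nesp sites and 91.5 and 92.1% in the gene body, mostly between 25.5 and 70.1% in the Nespas-side and exon 1A regions, and near 0 just after the exon 1 start.

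The Nesp end of the locus went from methylated through unmethylated to intermediate within a short distance. The first block, 5 sites at 545 to 578 bp after the Nesp start, was highly methylated. Its level was 74.4, 78.9 and 84.8% in HFD females 2, 3 and 4, and 92.9, 91.4 and 100% in HFD males 2, 3 and 4. In RD females 1 to 4 it was 64.7, 80.9, 79.0 and 70%, and in RD males 1 and 2 it was 82.8 and 72.6%. The 3 HFD males were the highest samples, followed by HFD female 4, and the diets overlapped. The means were 87.1 ± 9.52% (SD, n = 6) for HFD and 75.0 ± 7.04% (SD, n = 6) for RD.

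The next block, 10 sites at 741 to 814 bp after the Nesp start, was low. It stood at 19.9 ± 7.38% in HFD and 14.5 ± 4.04% in RD (SD, n = 6 each), with a range of 8.33 to 27.0% in HFD and 7.55 to 17.5% in RD. Over the 163 bp between the 2 blocks the level was lower on the right in all 12 mice, by 47.3 to 85.9 percentage points. At 1000 bp after the Nesp start, the single site 174285320 was listed at 0 in all 12 samples. Only 24 bp further, the 7 sites of 174285344 to 174285390 were at 33.8 ± 5.87% in HFD (n = 5, HFD female 2 without values) and 49.5 ± 15.4% in RD (n = 6). Their lowest sample was HFD male 4 at 25.6% and their highest RD female 2 at 76.3%, and the diets overlapped.

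From there the Nesp side stayed intermediate. The 3 sites of 174285424 to 174285446 were at 52.2 ± 9.40% in HFD and 54.1 ± 9.04% in RD (SD, n = 6 each). The 3 sites of 174285592 to 174285666 had like means, 42.0% in HFD and 38.8% in RD, but unlike spreads. The HFD samples lay within 37.2 to 48.5% (SD 3.73), while the RD samples lay at 36.5, 29.0, 38.1 and 70.1% in RD females 1 to 4 and at 48.2 and 11.1% in RD males 1 and 2 (SD 19.7). RD female 4 and RD male 2 stood apart in opposite directions. The SD within the diets, 14.2 percentage points, was above that of 99.6% of the 9021 intermediate 500 bp tiles of the genome, which hold 3 or more sites each and had a median of 4.85. The last 4 sites on this side, 174286385 to 174286974, had means of 44.16 to 57.11%.

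The next measured sites were the 5 of 174295489 to 174295560, which lie 53 to 124 bp beyond the right end of Nespas, the end from which an antisense RNA to Gnas is read. They were at 65.2, 48.8 and 54.8% in HFD females 2 to 4 and at 59.7, 58.6 and 60.0% in HFD males 2 to 4. In RD females 1 to 4 they were at 64.7, 58.8, 59.0 and 53.6%, and in RD males 1 and 2 at 49.1 and 68.9%. The diets covered nearly the same range, with means of 57.8 ± 5.56% (HFD) and 59.0 ± 7.19% (RD). The site means within the block were close, from 57.1% at 174295560 to 59.9% at 174295489. The limma adjusted p of the diet difference over this stretch was 0.967.

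Between 2583 and 4892 bp beyond Nespas lay a dense intermediate region, the one in which the locus was measured at most sites. Its stretch from 174298031 to 174300328 held 42 sites with values in all samples, from 37.8% at 174298372 to 70.1% at 174298047. Averaged over the stretch the HFD mice were within 51.0 to 54.4% and the RD mice within 52.8 to 63.7%, with RD female 1 the highest. The difference of −2.84 points (53.2 ± 1.26% against 56.1 ± 4.20%, SD, n = 6 each) did not pass the limma test (adjusted p = 0.879). With 1 sample left out it ranged from −3.48 to −1.30 points.

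The blocks of the region went different ways. The 6 sites of 174298019 to 174298056, the first 2 of which lie before that stretch, were lower in HFD, 65.1 ± 8.06% against 75.2 ± 6.0% (SD, n = 6 each). HFD females 2 to 4 were at 54.4, 56.7 and 64.3% and HFD males 2 to 4 at 69.8, 70.9 and 74.2%. RD females 1 to 4 were at 75.4, 78.0, 66.7 and 71.2% and RD males 1 and 2 at 84.3 and 75.6%. In both diets the lowest samples were females, and the diets overlapped. Further along, the 4 sites of 174299492 to 174299550 were higher in HFD, 69.0 ± 9.67% against 54.0 ± 12.5%. Their HFD values were 53.9 to 80.3%, and their RD values 38.2 to 65.7%, with RD female 3 and RD male 2 the lowest.

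Just after block 174299611 to 174299703, 2 sites that stand apart from it only because HFD male 4 has no value at the first were also lower in HFD. Site 174299739 was at 31.0 ± 12.1% in HFD (SD, n = 5) and 49.8 ± 14.3% in RD (SD, n = 6), and site 174299759 at 32.4 ± 10.1% and 50.4 ± 12.7% (SD, n = 6 each). The diets overlapped at both. The last 2 sites of the block before them, 174299689 and 174299703, differed by −10.6 and −12.9 points.

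The other blocks of at least 3 sites in the region differed by less between the diets. The 5 sites of 174299142 to 174299202 were at 56.5 ± 6.77% in HFD and 55.7 ± 15.5% in RD, the RD samples reaching from 33.0 to 78.8%. The 6 sites of 174299305 to 174299356 were at 37.7 ± 4.68 and 43.8 ± 6.64%, and the 9 sites of 174299611 to 174299703 at 55.8 ± 6.09 and 60.0 ± 8.28%. The lowest block of the region was 174299836 to 174299899, with 22.4 ± 10.5% in HFD (n = 5) and 28.1 ± 9.83% in RD. The 4 sites of 174300051 to 174300115 were at 57.9 ± 4.60 and 62.2 ± 3.5%.

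The few sites of the gene body ranged from intermediate to highly methylated. The 3 sites of 174316904 to 174316953 were at 91.5 ± 3.26% in HFD and 92.1 ± 2.63% in RD (SD, n = 6 each), with all samples between 86.8 and 95.6%. The 2 sites inside Gm30189 were at 78.5% (174322015) and 63.2% (174322077). The 3 sites near the 3′ end of Gnas (174345313 to 174345375) had means of 86.0 to 94.4%. No site was measured over the 16576 bp between 174300328 and 174316904.

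**Figure D2:**
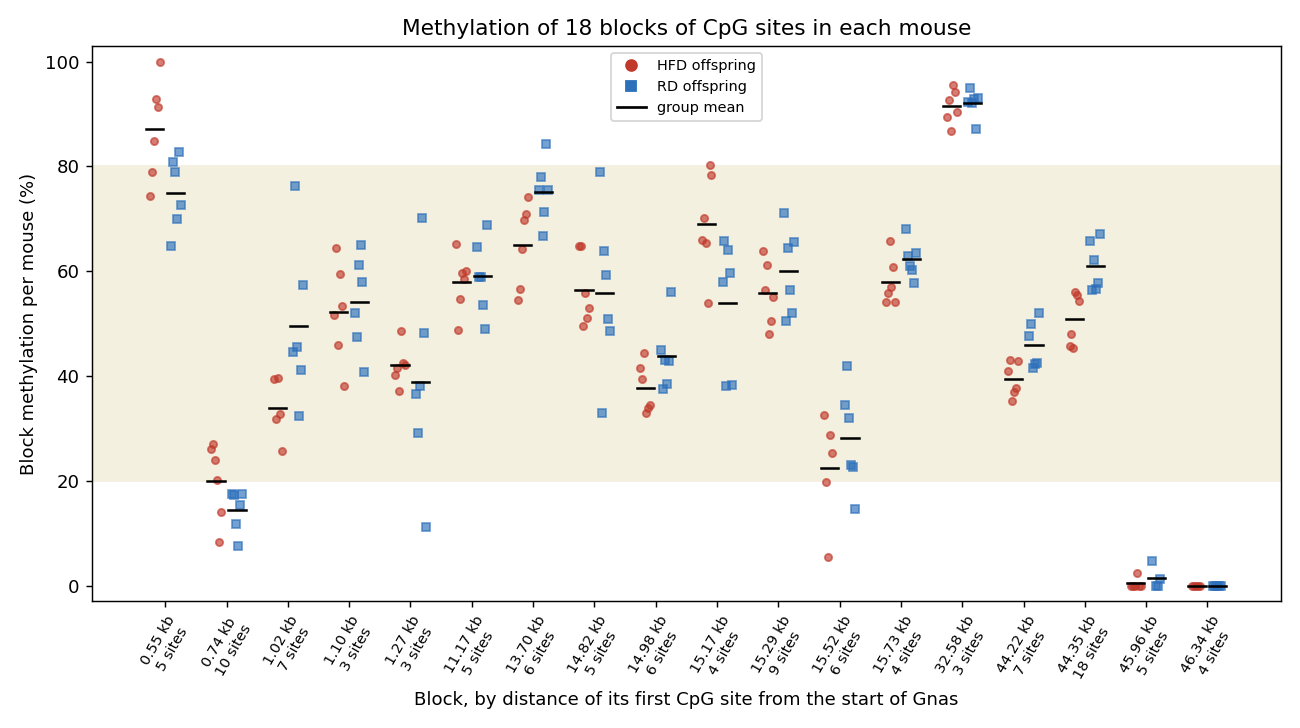
Methylation (percent) of the 18 blocks of at least 3 sites in each mouse, by diet, with black bars for the diet means and shading from 20 to 80%. In the block after exon 1A (174328672 to 174328781) the diets nearly met, at 56.0% for the highest HFD and 56.3% for the lowest RD mouse. In the other blocks they overlapped. Blocks were built in this locus only, after the data were seen, so no share over the genome can be set beside this.

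The exon 1A region held 25 sites, 795 to 1032 bp after the upstream exon 1A start and upstream of the exon 1 start. All 25 were intermediate in their mean, from 42.0% at 174328614 to 58.1% at 174328738. Averaged over the 25 sites, HFD females 2 to 4 were at 44.4, 46.7 and 42.5% and HFD males 2 to 4 at 50.7, 50.4 and 51.1%. RD females 1 to 4 were at 60.7, 54.5, 56.3 and 52.6%, and RD males 1 and 2 at 53.4 and 62.9%. Every HFD mouse was below every RD mouse, the nearest being HFD male 4 at 51.1% and RD female 4 at 52.6%. The difference was −9.13 percentage points (47.6 ± 3.67% against 56.8 ± 4.19%, SD, n = 6 each), or −0.52 ± 0.13 (SE) on the log2 ratio scale.

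That difference did not pass the test over the genome. In limma over all 23776 tiles its unadjusted p was 0.00125 and its adjusted p 0.265, and the stretch, which holds the same sites, also had 0.265. Diets that do not overlap were found in 0.627% of all tiles and 0.645% of all stretches.

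The region was not uniform. Its first 7 sites, 174328544 to 174328614, were at 41.0, 43.1 and 35.2% in HFD females, 36.9, 37.6 and 42.8% in HFD males, 47.6, 49.8, 41.6 and 42.3% in RD females and 42.6 and 52.0% in RD males. The diets overlapped here, with means of 39.4 ± 3.30 and 46.0 ± 4.44%. The 18 sites of 174328672 to 174328781 were higher in level and wider in difference. They were at 45.7, 48.1 and 45.3% in HFD females, 56.0, 55.4 and 54.4% in HFD males, 65.8, 56.3, 62.1 and 56.6% in RD females and 57.7 and 67.2% in RD males. The highest HFD mouse (56.0%) and the lowest RD mouse (56.3%) nearly met.

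Within the 18 sites the samples switched order between 1 base and the next. Positions 174328738 and 174328739 are neighbouring bases, and a check on the promoter windows showed that the table lists single cytosines of either strand: 48.6% of the 39729 deposited sites in those windows stood at the C of a CpG, 51.4% at the G, and 0.0201% at neither. Site 174328738 followed the sites to its right (Pearson's r over 12 samples of 0.843 with their mean, 0.466 with that of the sites to its left). Site 174328739 followed the sites to its left (r of 0.957, and 0.183 with the right). HFD female 2 was at 56.1% on the first base and 42.6% on the second, and HFD female 4 at 57.5 and 38.3%. HFD female 3 went the other way, with 42.3 and 55.1%, and so did RD male 1, with 52.2 and 62.2%. The means of the 2 bases over all samples were close, 58.1 and 57.4%.

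This split was drawn after the values were seen and is a description. The 11 left sites (174328672 to 174328736 with 174328739) were at 39.3, 51.5 and 37.5% in HFD females, 56.9, 54.3 and 54.1% in HFD males, 67.6, 59.4, 64.5 and 53.9% in RD females and 61.6 and 68.6% in RD males. The 7 right sites (174328738 and 174328742 to 174328781) were at 55.8, 42.8 and 57.5% in HFD females, 54.6, 57.1 and 54.8% in HFD males, 63.0, 51.5, 58.2 and 60.7% in RD females and 51.4 and 65% in RD males. The diet means were 13.7 points apart on the left (48.9 ± 8.35 against 62.6 ± 5.49%) and 4.55 points apart on the right (53.8 ± 5.51 against 58.3 ± 5.76%). Over the samples, r was 0.312 between the left and right sites, and 0.654 between the left sites and the first 7 sites of the region. Single sites within a part moved closely together, with a median r of 0.962 on the left and 0.844 on the right. Over the genome, 700 pairs of intermediate sites 1 bp apart had a median r of 0.148, and 7829 neighbours 2 to 10 bp apart 0.555. How the strands were treated in making the table is not given in the sources used here, and its part in this pattern was not tested.

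**Figure D3:**
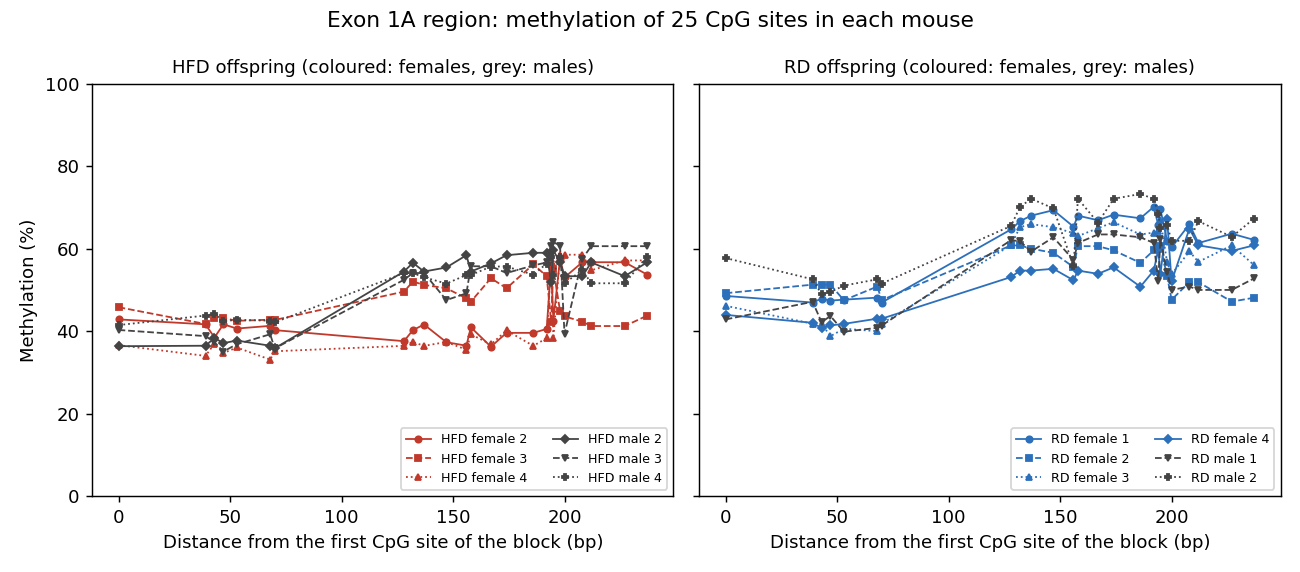
Methylation (percent) at each of the 25 sites of the exon 1A region, 1 line per mouse, HFD on the left and RD on the right, against the distance in bp, with females in colour and males in grey. HFD females 2 and 4 lie lowest over the left sites (39.3 and 37.5% on average) and not over the right sites (55.8 and 57.5%).

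Just after the exon 1 start the locus was close to unmethylated. The 10 sites at 273 to 687 bp after the exon 1 start were listed at 0 in all but 5 of their 99 values, and the highest value at a site was 15.4%. The first 5, 174330279 to 174330292, averaged 0.394 ± 0.964% in HFD (n = 6) and 1.49 ± 2.18% in RD (n = 4). Values above 0 came from HFD male 2 (2.36%), RD female 1 (4.62%) and RD male 1 (1.33%). The other 5 sites were at 0 in every sample with a value. The first of the 10 sites lies 1498 bp after the last intermediate site of the exon 1A region. None of the 10 sites had values in all 12 samples, so they entered no test. No read counts stand beside the values, so the level that these zeros allow cannot be stated.

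Over the locus, most sites were lower in the HFD offspring, and no difference passed a test across the genome. By their means 91 of the 135 sites were lower in HFD, 37 higher and 7 equal. Of the 18 blocks, 12 were lower, 5 higher and 1 equal, from −15.7 to 15.1 percentage points. Values were tested with limma on log2((rate + 0.05)/(1 − rate + 0.05)) with diet and sex as terms, for autosomal features with values in all samples and a mean of 5 to 95%. That left 105 sites, 10 tiles of 500 bp with at least 3 sites, and 7 stretches, runs of at least 3 neighbouring sites of 1 class.

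At an adjusted p under 0.05, 0 of the 105 sites, 0 of the 10 tiles and 0 of the 7 stretches were called for diet. Among all features tested, 0.0102% of sites, 0.0294% of tiles and 0.0537% of stretches were called, 16, 7 and 10 features. At an unadjusted p under 0.05, 23 of the 105 sites (17 lower in HFD), 3 tiles (2 lower) and 2 stretches (1 lower) passed, against 6.53% of all sites, 7.81% of all tiles and 7.79% of all stretches. By the sign of the limma diet term on the log2 ratio scale, 68 of the 105 sites were lower in HFD, against 52.2% of all sites tested. The neighbouring sites of a block are not independent. The diets did not overlap at 1 of the 105 sites, 174328681, against 0.482% of all sites. In a test on simulated rates, a shift of 1 on the log2 ratio scale was recovered at 128 of 200 tiles and 121 of 200 stretches but at 0 of 200 sites. No shift below 1 was tried, so recovery of a difference such as the −0.52 of the exon 1A tile is unknown.

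The 5 sites with the smallest diet p had lower means in HFD and did not pass the adjusted threshold. Site 174328691 was at 46.6% in the HFD and 63.5% in the RD mice (limma adjusted p = 0.414). Sites 174328702, 174328718 and 174328672 of the same block differed by −14.8, −14.5 and −13.7 points (adjusted p of 0.463, 0.509 and 0.542). Site 174298031 was at 53.5% and 69.9% (adjusted p = 0.542).

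Of the 10 tiles, the 3 past an unadjusted p of 0.05 were at the Nesp end, at the start of the region beyond Nespas and at exon 1A. The first differed by 12.0 points, with a limma adjusted p of 0.506. The second differed by −6.17 points (56.8 ± 4.87 against 63.0 ± 4.20%), with a limma adjusted p of 0.544. With 1 sample left out, the unadjusted limma p reached 0.0623 for the first and 0.0599 for the second. For the exon 1A tile it reached 0.00530. Of the other 7 tiles, the differences were 3.47 points at 174285061 to 174285446, 3.16 at 174285592 to 174285666 and −0.870 at 174295512 to 174295560. Further along they were −0.226 at 174299142 to 174299496, −2.12 at 174299514 to 174299759, −4.60 at 174300051 to 174300328 and −0.587 at 174316904 to 174316953. The lowest limma adjusted p of these 7 was 0.772, and the tile from 174299142 had a difference of the other sign on the log2 ratio scale (0.02). The stretch at the Nesp end that joins the low block with the site at 0 (174285061 to 174285320, site means of 0 to 18.3% at 174285073) differed by 4.93 points (adjusted p = 0.722). The stretch of the first methylated sites, 174284865 to 174284880 (site means of 80.5 to 82.9%), differed by 10.7 points (adjusted p = 0.556). In stretch 174285424 to 174286974 the site means ran from 38.6% at 174285639 to 57.1%, and in stretch 174316904 to 174316953 from 88.2% to 95.2% at 174316921.

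**Figure D4:**
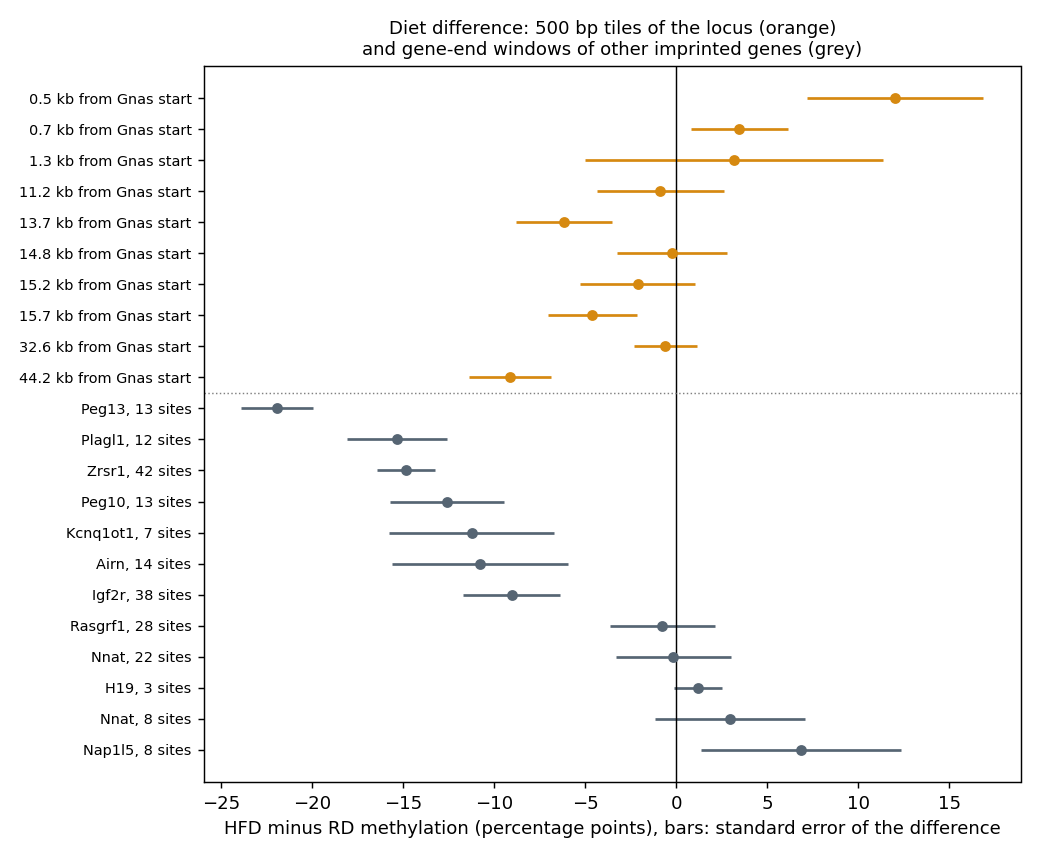
Differences in methylation (HFD minus RD, percentage points) of the 10 tiles of the Gnas complex locus (orange) and of the windows of other imprinted genes (grey), with bars of 1 standard error of the difference. The exon 1A tile lies at −9.13 points, and Peg13 (−21.9 points) and Zrsr1 (−14.8 points) are the 2 windows that passed the test.

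Females and males did not differ past the adjusted threshold at any feature of the locus. In limma 0 of 105 sites, 0 of 10 tiles and 0 of 7 stretches were called for sex, against 0% of all sites, 0.0168% of tiles and 0.0161% of stretches. At an unadjusted p under 0.05, 8 sites, 1 tile and 1 stretch passed, all lower in females, against 5.3% of all sites, 5.56% of all tiles and 5.6% of all stretches. The 5 sites with the smallest p lay in the methylated Nesp block and in block 174298019 to 174298056. Site 174298019 was at 70.7 ± 10.2% in females (SD, n = 7) and 84.9 ± 5.37% in males (SD, n = 5), with a limma adjusted p of 0.725. Site 174298053 was at 54.9 and 69.8%, site 174284875 at 75.4 and 89.8%, site 174284886 at 73.0 and 87.7% and site 174284880 at 75.1 and 88.0%, all with an adjusted p of 0.917.

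The diets were also compared within each sex, where 2 RD males limit the contrast. In the Nesp block HFD males were at 94.8 ± 4.60% (SD, n = 3) and RD males at 77.7 ± 7.21% (SD, n = 2), and HFD females at 79.4 ± 5.25% (SD, n = 3) and RD females at 73.7 ± 7.61% (SD, n = 4). The limma p of this tile was 0.00239 in males (adjusted p = 0.503), and 0.0392 for the diet-by-sex interaction (adjusted p = 0.969). The low block beside it, 174285061 to 174285134, had the other order of the sexes in HFD and the same order in RD. HFD females were at 25.7 ± 1.56% and RD females at 13.55 ± 4.79%, and HFD males at 14.2 ± 5.87% and RD males at 16.4 ± 1.47%. Its stretch (174285061 to 174285320) had a limma p of 0.00529 in females (adjusted p = 0.622), and of 0.0190 for the interaction (adjusted p = 0.955). In the exon 1A block 174328672 to 174328781 the order of the groups was another: HFD females were lowest at 46.4 ± 1.51%, HFD males at 55.3 ± 0.818%, RD females at 60.2 ± 4.60% and RD males at 62.4 ± 6.72%. Its tile had a limma adjusted p of 0.605 in females, 0.772 in males and 0.992 for the interaction. Of the locus's sites, tiles and stretches, 0 were called for the interaction by limma, against 0% of all features of each kind. At an unadjusted p under 0.05 the interaction passed at 8 sites, 3 tiles and 3 stretches, against 5.11% of all sites, 5.1% of all tiles and 5.09% of all stretches.

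No single mouse was high or low throughout. Among the 14 blocks with values in all samples, RD male 2 was the highest in 4 and RD female 1 in 3, and HFD female 4 was the lowest in 3. Averaged over the 86 intermediate sites with values in all samples, the HFD mice lay within 50.8 to 53.6% and the RD mice within 53.4 to 61.4%, RD female 2 being the lowest RD mouse and RD female 1 the highest.

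Other imprinted genes gave the setting for these differences. Of 20 imprinted genes with a germline mark, 13 had a window (1000 bp to each side of a gene end, at least 3 sites), and 12 windows lay within 5 to 95% and were tested. In limma 2 of the 12 were called, both lower in HFD, against 0.12% of all 4170 windows. In all, 7 of the 12 had an unadjusted limma p under 0.05, each lower in HFD, against 7.91% of all windows. By their means 9 of the 12 were lower, while Nap1l5 (6.84 points), H19 (1.20) and 1 window of Nnat (2.98) were higher. The list was chosen with earlier results of these data known, so these counts are a description. Its windows are not all separate loci: Nnat has more than 1, and Igf2r and Airn lie close together on chromosome 17. The median difference over the 12 was −9.89 points, and over all windows −0.109. The window of Peg13, an imprinted non-coding RNA, was at 59.6 ± 4.25% in HFD and 81.6 ± 2.22% in RD (adjusted p = 0.00105). That of Zrsr1, an imprinted splicing factor gene, was at 59.1 ± 3.04 and 73.9 ± 2.39% (adjusted p = 0.0120). Plagl1, which encodes a zinc finger factor, was next by p, with 51.8 ± 3.94 and 67.2 ± 5.44% (adjusted p = 0.147). The 2 windows of the Gnas locus that hold gene ends were the Nesp end (39.6% in HFD, 32.5% in RD) and the Nespas end, and both were kept out of the 12. The first was higher in HFD by 7.15 points, with an unadjusted limma p of 0.00732 (adjusted p = 0.443), against the direction of the 7 windows above. The second had an adjusted p of 0.959.

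Of 26 genes of the Gs and cyclic AMP pathway, 17 had a window, 13 of these lay below 5% methylation, and 0 of the 4 tested were called by limma or had an unadjusted p under 0.05. Their median difference was −1.50 points. Adcy5, an adenylyl cyclase of the heart, was at 16.8 ± 5.08% in HFD and 18.8 ± 3.58% in RD. Rapgef4, a cyclic AMP-regulated exchange factor, was at 5.04 ± 3.98 and 7.56 ± 10.9%. Its RD mean rests on RD female 1 at 29.4%, and without that mouse it was 3.20%, below the HFD mean.

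Marker genes of the cell types of the ventricle were read in the same way. The 3 tested cardiomyocyte windows, of 4 with sites, did not pass: Myh6 was at 67.3% in HFD and 71.1% in RD, Tnnt2 at 49.0 and 47.7%, and Actn2 at 6.49 and 6.53%. The sign of the Tnnt2 difference turned without RD female 1, and that of Actn2 without any 1 of 7 mice. Of the 2 endothelial windows, Esam fell from 35.0 ± 3.61% in RD to 19.5 ± 3.82% in HFD (limma adjusted p = 0.0300) and Eng was at 19.9 and 15.4% (adjusted p = 0.567). Fibroblast and blood markers had 0 windows. The part of these levels in the differences at the Gnas locus was not tested.

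The windows whose level followed the locus most closely were found by Pearson's r over the 12 samples with the mean of its 86 intermediate sites, among 3364 windows. The highest r were 0.936 for Cryl1 (2.92% in HFD and 8.66% in RD), 0.906 for the window shared by Thbs3 and Mir92b, 0.906 for Ffar2, 0.863 for Abi3 with Gngt2 and 0.856 for Mta3. The lowest were −0.911 for Gm31637 and −0.874 for Gm35456. All values of a sample come from 1 library, and the highest of so many r is high by selection.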

How the data were processed

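Per the labels, DNA from the left ventricle of 12 offspring was cut with MspI, made into libraries (NEXTflex kit, EZ DNA Methylation-Gold conversion) and sequenced on a NovaSeq with about 40000000 reads aimed at per library. The submitters' processing notes name FastQC, Trim Galore, Bismark 0.19, limma and the build mm10 (GRCm38). The authors deposited 1 table of percent methylation per cytosine position and sample. A coverage minimum and the handling of strands are not given in the sources used here. Read counts do not stand beside the percentages, so depth is unknown and rates were tested in place of counts. Each sample had values at 385299 to 417081 sites, and at 123 to 135 of the locus.

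Samples were grouped by maternal diet and sex. All columns matched a sample (0 unmatched). Rates were turned into log2((rate + 0.05)/(1 − rate + 0.05)) and fitted with limma 3.58.1 (R 4.3.3, lmFit and eBayes) on all 12 samples, with diet and sex as terms. Contrasts within a sex and the interaction used 1 mean per group. Two-sided p-values had a Benjamini-Hochberg adjustment over the 157524 sites, 23776 tiles, 18618 stretches or 4170 windows, with a threshold of 0.05. Stretches ended at a change of class or a gap over 1000 bp. Promoter sequences and gene positions are from RefSeq (GRCm38.p6). Blocks were defined after the data were seen and only described. Tests were tried on simulated rates with 200 changed features: a shift of 2 recovered 116 sites, 188 tiles and 195 stretches.

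The members and lists were chosen with earlier results of these data known. Every tile and stretch of the locus was described. Single sites were named by rule: the 5 with the smallest p for diet and for sex, and the lowest and highest of each stretch. From each list the 3 windows with the smallest p were named, except 1 that is not reported here, and of like patterns the 5 highest and 2 lowest r. Sites and blocks named beyond this rule were chosen after their values were seen. Alternatives changed the offset, transformation, limits on the mean, tile and stretch definitions, missing values, variance moderation, the sex term, a replicate block, and left out each sample in turn.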

Additional observations from a re-analysis of the deposited data

Results flagged for a closer look

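In block 174330279 to 174330292, after the exon 1 start, HFD male 2 was at 2.36% while the other 5 HFD mice were at 0, a gap as wide as the whole range of the group. With the other 5 at 0, any value above 0 would have given this gap, so the flag says nothing about its size. Of 34 groups of samples examined in this way, 1 stood out, and chance alone picks out about 1.7, a number that takes no account of such zeros. Without read counts, the number of reads behind the value is unknown.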

How the results depend on the processing

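No feature of the Gnas complex locus was called for diet at sites, tiles or stretches by limma under any alternative that was run, or with any 1 sample left out (0 to 0). Read depth limits all values and is unknown: the planned minimum of 20 reads per site was not run because the table holds no coverage. The exon 1A tile stayed lower in HFD throughout, by −9.96 to −7.89 points with 1 sample left out (limma adjusted p of 0.204 to 0.511), and with an adjusted p of 0.127 to 0.641 under the other alternatives.

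Counts over the whole genome moved. Of single sites, 16 were called for diet. Untransformed rates gave 78, a mean limited to 20 to 80% gave 54, trend and robust variances 31, no sex term 27, missing values allowed 2, and the replicate block 0. Of tiles, 7 were called, against 19 with a mean of 20 to 80%, 17 with untransformed rates, 16 with at least 5 sites, 13 without the sex term and 3 with the replicate block. Of stretches, 10 were called, against 15 with untransformed rates, 6 each with an offset of 0.01, trend and robust variances or class limits of 30 and 70%, and 3 with the replicate block. For sex, an offset of 0.01 gave 0 tiles (4 otherwise) and 0 stretches (3 otherwise). With 1 sample left out, diet calls ranged over 0 to 22 sites, 3 to 11 tiles and 4 to 11 stretches, sex calls over 0 to 1 sites, 0 to 5 tiles and 0 to 4 stretches, calls within females over 0 to 4 tiles and 0 to 5 stretches, and within males over 0 to 2 of each; the interaction stayed at 0 to 0. Same-numbered mice of the groups did not deviate together over tiles (r of −0.0819 to 0.0164 over 13 pairs). These r cannot show whether such mice shared a litter or were handled together, which is not given in the sources used here.

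Small differences changed sign. Allowing missing values turned tile 174285061 to 174285446 to −3.14 points, where HFD female 2 lacks 7 sites. With 1 sample left out that tile stayed higher in HFD, by 1.93 to 5.07 points. On the log2 scale the sign changed for tile 174299142 to 174299496 (−0.226 points) without the sex term and for tile 174299514 to 174299759 (−2.12 points) with the replicate block. With 1 sample left out, the sign on the log2 scale turned at least once for the following, whose differences in points reached from −2.38 to 9.42 at tile 174285592, −2.75 to 1.03 at 174295512, −2.32 to 1.67 at 174299142, −3.34 to −0.0470 at 174299514 and −1.57 to 0.353 at 174316904, and at the stretches from 174285424 (−0.351 to 4.18), 174295489 (−3.14 to 0.824) and 174316904 (−1.57 to 0.353). The cause was not tested.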
